A study of Mus musculus with 16 samples.

Results

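Small RNAs of mouse common lymphoid progenitors (CLP) were set against those of B cells. CLP are bone marrow progenitors from which lymphocytes arise, and B cells are the lymphocytes that make antibodies. The 4 libraries whose label gives the cell type as CLP (2) or B (2) were taken from a series of 16 libraries, in which 8 bone marrow populations have 2 libraries each: CLP, CMP, GMP, MEP, B, T, Myeloid and Erythroid. Of the 1885 small RNA intervals listed in the series, 1456 had at least 1 read in a CLP or B library, and 749 passed the filter on low counts and were tested. B cells were used alone and not averaged with T cells.

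All populations were sorted by flow cytometry from bone marrow with a lineage cocktail, which holds CD45R (B220) and IgM among other antigens, and with antibodies that include CD127, Sca-1, c-Kit and Flk2. The gates that define CLP and B, and the strain, genotype, age and sex of the mice, are not given in the sources used here, and no treatment is named. No small RNA measured here defines a CLP, so the label could be checked only through markers of other cells. The libraries are not stated to come from separate mice, so each p-value rests on how far 2 libraries of a population differ, and that spread could be technical only. In bulk libraries such as these, fewer cells of a type and less RNA per cell cannot be told apart.

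Libraries were selected on a gel for inserts of small nucleolar RNA (snoRNA) length. C/D box snoRNAs guide ribose methylation of ribosomal RNA (rRNA) and H/ACA box snoRNAs guide pseudouridylation. Most mouse snoRNAs are cut out of the introns of host genes, many of which encode ribosomal proteins or nucleolar factors or are noncoding. Small Cajal body RNAs (scaRNAs) guide the same modifications on the small nuclear RNAs (snRNAs) of the spliceosome. MicroRNAs (miRNAs) are cut from hairpin precursors and repress messenger RNAs that match their seed. The counted intervals here are the hairpins, so mature and precursor reads cannot be told apart.

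The sequences below belong to the features with the largest differences and to their closest relatives. All snoRNA and snRNA letters are those of the GENCODE M21 transcripts on GRCm38. Among the C/D snoRNAs, Snord123 (chr15:32241853-32241923, minus strand, an intron of the noncoding gene Snhg18) had the largest fall in CLP among those whose mean reached 10 CPM. Snord49a (chr11:62603450-62603521, plus strand, an intron of 2410006H16Rik) was the most abundant snoRNA called lower under all 3 scalings described below. Snord70 (chr1:59691934-59692020, plus strand) and Gm26287 (chr1:59704258-59704338, plus strand), both in introns of Nop58, had the largest rises. Capitals mark the letters TGATGA within the first 22 bases and the last CTGA within the last 18 bases, read on the transcript strand, which are forms of the C and D boxes.
Snord123: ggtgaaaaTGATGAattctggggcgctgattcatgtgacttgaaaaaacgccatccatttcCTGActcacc
Snord49a: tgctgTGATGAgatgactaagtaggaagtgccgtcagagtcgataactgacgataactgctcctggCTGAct
Snord70: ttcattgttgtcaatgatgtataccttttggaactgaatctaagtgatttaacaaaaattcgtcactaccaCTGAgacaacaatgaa
Gm26287: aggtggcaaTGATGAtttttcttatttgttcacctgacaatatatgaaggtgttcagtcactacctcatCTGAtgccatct
The letters TGATGA were found in that window in 52 of 81 intervals whose symbol starts with Snord (64.2%) and in 0 of 38 whose symbol starts with Snora. The letters CTGA were found in their window in 96.3% and 7.89% of the same intervals. Snord70 and Gm26287 shared 57.7% of aligned bases, so the Nop58 pair are separate sequences.

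Among the H/ACA snoRNAs, the Snora43 interval with the identifier ENSMUSG00000097052 (chr2:26637847-26637985, minus strand) and Snora26 (chr5:74093530-74093650, plus strand, overlapping exons of the noncoding gene Dancr) rose in CLP. Gm25117 (chr10:111481493-111481636, plus strand, an intron of Nap1l1) and Gm25291 (chr11:51737779-51737922, minus strand, an intron of Sec24a) fell. Capitals mark the letters ACA placed 3 bases before the end, the box that gives the class its name, on the transcript strand.
Snora43 (ENSMUSG00000097052): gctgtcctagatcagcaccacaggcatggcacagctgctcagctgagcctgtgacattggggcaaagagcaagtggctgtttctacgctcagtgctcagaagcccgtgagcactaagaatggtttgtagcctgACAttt
Snora26: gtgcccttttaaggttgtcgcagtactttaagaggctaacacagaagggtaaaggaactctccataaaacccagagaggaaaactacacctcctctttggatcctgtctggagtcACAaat
Gm25117: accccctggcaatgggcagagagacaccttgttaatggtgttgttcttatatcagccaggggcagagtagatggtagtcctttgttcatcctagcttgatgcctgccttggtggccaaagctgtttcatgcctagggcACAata
Gm25291: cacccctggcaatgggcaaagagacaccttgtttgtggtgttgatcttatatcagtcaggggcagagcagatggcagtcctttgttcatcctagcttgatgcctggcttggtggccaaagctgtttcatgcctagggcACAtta
That ACA was present in 32 of 38 Snora intervals (84.2%) and in 0 of 81 Snord intervals. Gm25117 and Gm25291 had the same base at 133 of 144 aligned positions (92.4%), although they lie on different chromosomes.

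The snRNA sequences show a U2-like pair that was higher in CLP, beside U2 itself. Gm23744 (chr1:155954574-155954722, plus strand) and Gm25106 (chr11:98473675-98473808, minus strand, an intron of Ikzf3, which encodes a lymphocyte transcription factor) are shorter than U2. Gm23744 begins like Rnu2-10 (chr11:101658238-101658428, plus strand), and Gm25106 aligned with it from its base 6 on, with some differences. Capitals in the lines that follow mark the stretch that aligned with Rnu2-10, and in Rnu2-10 itself the stretch that aligned with Gm23744.
Rnu2-10: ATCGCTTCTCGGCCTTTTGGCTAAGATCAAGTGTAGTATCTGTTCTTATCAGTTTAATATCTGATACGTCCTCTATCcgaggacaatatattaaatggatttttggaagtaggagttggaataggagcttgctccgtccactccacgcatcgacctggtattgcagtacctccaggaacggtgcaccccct
Gm23744: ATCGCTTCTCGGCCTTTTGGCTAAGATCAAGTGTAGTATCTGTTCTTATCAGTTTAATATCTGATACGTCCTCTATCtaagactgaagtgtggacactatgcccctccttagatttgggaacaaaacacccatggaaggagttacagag
Gm25106: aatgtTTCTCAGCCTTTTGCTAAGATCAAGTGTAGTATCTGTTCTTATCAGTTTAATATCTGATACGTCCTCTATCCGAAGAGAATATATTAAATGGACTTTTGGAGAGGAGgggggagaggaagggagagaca

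Mature miRNA sequences were taken from RefSeq on GRCm38.p6, where 173 of the 261 tested miRNA intervals had an entry under their symbol. The first 4 belong to hairpins that passed the test in CLP against B. The last 4 share one seed and come from 2 gene clusters, and of these 4 Mir17 alone passed the test. Capitals mark the seed, bases 2 to 8 from the 5′ end.
mmu-miR-139-5p: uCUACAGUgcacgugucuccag
mmu-miR-451a: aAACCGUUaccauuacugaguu
mmu-miR-30a-5p: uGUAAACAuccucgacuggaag
mmu-miR-223-3p: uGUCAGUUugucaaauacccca
mmu-miR-17-5p: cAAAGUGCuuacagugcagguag
mmu-miR-20a-5p: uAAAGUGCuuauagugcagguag
mmu-miR-106a-5p: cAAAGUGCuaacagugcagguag
mmu-miR-20b-5p: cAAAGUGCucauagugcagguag
The first 4 have 4 different seeds, and the last 4 share the seed AAAGUGC.

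CLP library 1 held 20608796 counts and CLP library 2 held 41799906. The B libraries held 19974768 and 15877524. A count of 0 in these libraries allowed up to 0.0651 to 0.235 CPM (counts scaled to a common library size), taken as 3 counts, and this limit covers counting error only. Levels are given as CPM over library sizes scaled by the trimmed mean of M values (TMM), a scaling that sets the bulk of the features equal between libraries. The TMM factors were 1.10 in both CLP libraries and 0.844 and 0.805 in the B libraries, so scaling by library totals instead moved the median log2 fold change over all tested features up by 0.42. Feature calls were therefore made under TMM, under edgeR's RLE factors and under library totals. Values are those under TMM unless another scaling is named.

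With edgeR's quasi-likelihood test and Benjamini-Hochberg adjustment, 228 of 749 features (30.4%) passed an adjusted p of 0.05 between CLP and B. Of these, 118 (15.8%) were higher in CLP and 110 (14.7%) were lower, and the median log2 fold change over all tested features was 0.08. Under library totals the split was 242 higher (32.3%) and 54 lower (7.21%). Under all 3 scalings 99 features rose and 54 fell. Counts of members below are read against these shares. Both libraries of one population lay beyond both of the other for 530 features (70.8%), with CLP above B for 289 (38.6%) and below for 241 (32.2%). Of the 307 features whose mean reached 10 CPM, 149 passed (48.5%). Without CLP library 1, CLP library 2, B library 1 or B library 2 in turn, 150, 144, 167 and 142 features passed. With the GMP, MEP and Erythroid libraries left out of the fit, 349 passed, 169 higher (23.5% of those tested) and 180 lower (25%).

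**Figure D1:**
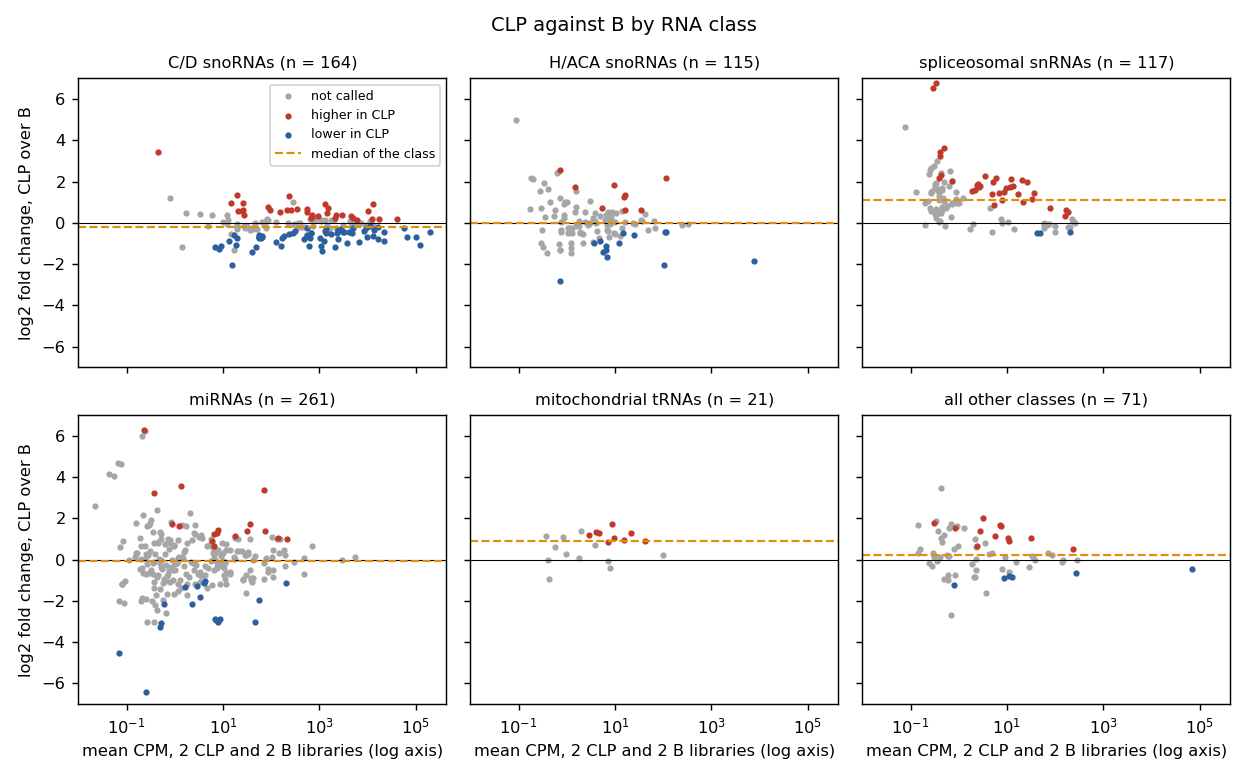
Log2 fold change of CLP over B (vertical axis) against mean CPM over the 4 libraries (horizontal log axis) for the tested features of each RNA class, with TMM scaling. Red points are higher in CLP, blue points are lower, grey points did not pass, and the dashed line is the class median. The C/D snoRNAs lie on both sides of 0, whereas the points of the snRNA panel lie mostly above it, with a class median of 1.13.

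By share of counts, C/D snoRNAs made up 90.8% ± 0.428 of the CLP libraries and 90.8% ± 0.579 of the B libraries (SD, n = 2 each). H/ACA snoRNAs made up 0.568% ± 0.0404 in CLP and 1.16% ± 0.0629 in B, and the 14 libraries other than CLP lay between 0.858% and 1.35%. snRNAs made up 0.369% ± 0.0044 in CLP and 0.248% ± 0.00986 in B, and miRNAs 1.66% ± 0.0688 and 1.18% ± 0.00119. Shares are taken of library totals, and under TMM the populations lay closer in both classes. The summed miRNA level was then 14686 and 15537 CPM in CLP and 13933 and 14628 CPM in B. The summed snRNA level was 3381 and 3317 CPM in CLP and 3014 and 2986.5 CPM in B. The 45S pre-rRNA interval made up 6.43% ± 0.403 and 6.48% ± 0.653, so its share differed by less than the spread between libraries. No test was made on shares, because 2 against 2 libraries cannot give a small exact p.

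C/D snoRNAs changed in both directions, with more falls than rises under TMM. Of 164 tested, 35 were higher in CLP and 69 lower, with a median log2 fold change of -0.18. Under library totals the counts were 79 higher and 33 lower with a median of 0.24, so the direction of the class as a whole depends on the scaling. Under all 3 scalings 23 rose and 33 fell. Without CLP library 2 or B library 2, 68 and 62 passed in place of 104. Among the 68 with a mean of at least 1000 CPM, 14 rose and 36 fell under TMM, and their median was -0.25.

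Snord123 had the largest fall of any C/D snoRNA named by the rule. Its level was 5.56 and 6.77 CPM in the CLP libraries and 25.1 and 25.3 CPM in the B libraries. Both B libraries lay far above both CLP libraries, and the T libraries, at 5.62 and 5.75 CPM, lay at the CLP level. The log2 fold change of CLP over B was -2.03 ± 0.17 (SE, adjusted p = 6.33e-06, edgeR), which is 4.08-fold lower. B against T gave a log2 fold change of 2.15 (adjusted p = 1.04e-05).

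Snord90, in an intron of Rc3h2, which encodes an RNA-binding ubiquitin ligase, stood at 639 and 604 CPM in CLP and at 1668 and 1541 CPM in B. The groups did not overlap and the log2 fold change was -1.37 ± 0.07 (adjusted p = 9.01e-08). Snord85 was at 19.6 and 23.7 CPM in CLP against 51.5 and 65.1 CPM in B (-1.43 ± 0.19, adjusted p = 0.000162). Snord71, in an intron of Ap1g1, a gene of vesicle transport, was at 1318 and 1305 CPM in CLP and at 2908 and 2893 CPM in B, a log2 fold change of -1.14. Gm26109, in an intron of the chaperone gene Hspa9, gave -1.18. These falls were called under all 3 scalings.

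The most abundant feature of the 4 libraries was Gm26224, in an intron of Gas5. It was at 170390 and 165930 CPM in CLP and at 216520 and 233850 CPM in B, a log2 fold change of -0.42 ± 0.05. That fall depends on the scaling, since under library totals the value was -0.00 and not called. Snord49a was at 80110 and 79521 CPM in CLP and at 158280 and 171670 CPM in B. Every B library held more than every CLP library, and the log2 fold change of -1.05 ± 0.06 (adjusted p = 2.92e-07) stayed called at -0.63 under library totals. Snord2, in an intron of the translation factor gene Eif4a2, was at 75820 and 78357 CPM in CLP and 118650 and 127980 CPM in B (-0.68 ± 0.07). Snord68, in an intron of the ribosomal protein gene Rpl13, gave -0.69 ± 0.04, and both were called under all 3 scalings. Gm23301, in an intron of Rpl17, gave -0.24 under TMM and 0.18 under library totals, so no direction is given for it.

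The largest rises among C/D snoRNAs were both in Nop58, which encodes a core protein of C/D snoRNA particles. Snord70 was at 340 and 341 CPM in CLP and at 137 and 135 CPM in B, a log2 fold change of 1.33 ± 0.08 (adjusted p = 6.25e-07). Gm26287 was at 29.7 and 27.7 CPM in CLP and at 13.2 and 8.91 CPM in B (1.37 ± 0.18, adjusted p = 0.000128). In both snoRNAs the CLP libraries lay above the B libraries without overlap. Of the 4 tested snoRNAs within Nop58, 2 rose and 0 fell, with a median of 0.75.

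Gm25878, in an intron of the noncoding snoRNA host Zfas1, was the most abundant of the larger rises, at 17164 and 16959 CPM in CLP and 9253 and 9105 CPM in B (0.89 ± 0.05, adjusted p = 1.46e-07). Gm24916, in an intron of Gnl3, which encodes the nucleolar protein nucleostemin, was at 1722 and 1765 CPM in CLP and 926 and 951 CPM in B, also 0.89. Both were chosen after their values were seen. Gm22571, in an intron of the ribosomal protein gene Rpl4, was at 36.5 and 33.0 CPM in CLP and 17.8 and 17.7 CPM in B (0.97 ± 0.14). Gm23090, in an intron of Ubap2, gave 0.98 ± 0.23 (adjusted p = 0.00713). Its call was lost without CLP library 1 (adjusted p = 0.0836) and without B library 2 (adjusted p = 0.0694).

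**Figure D2:**
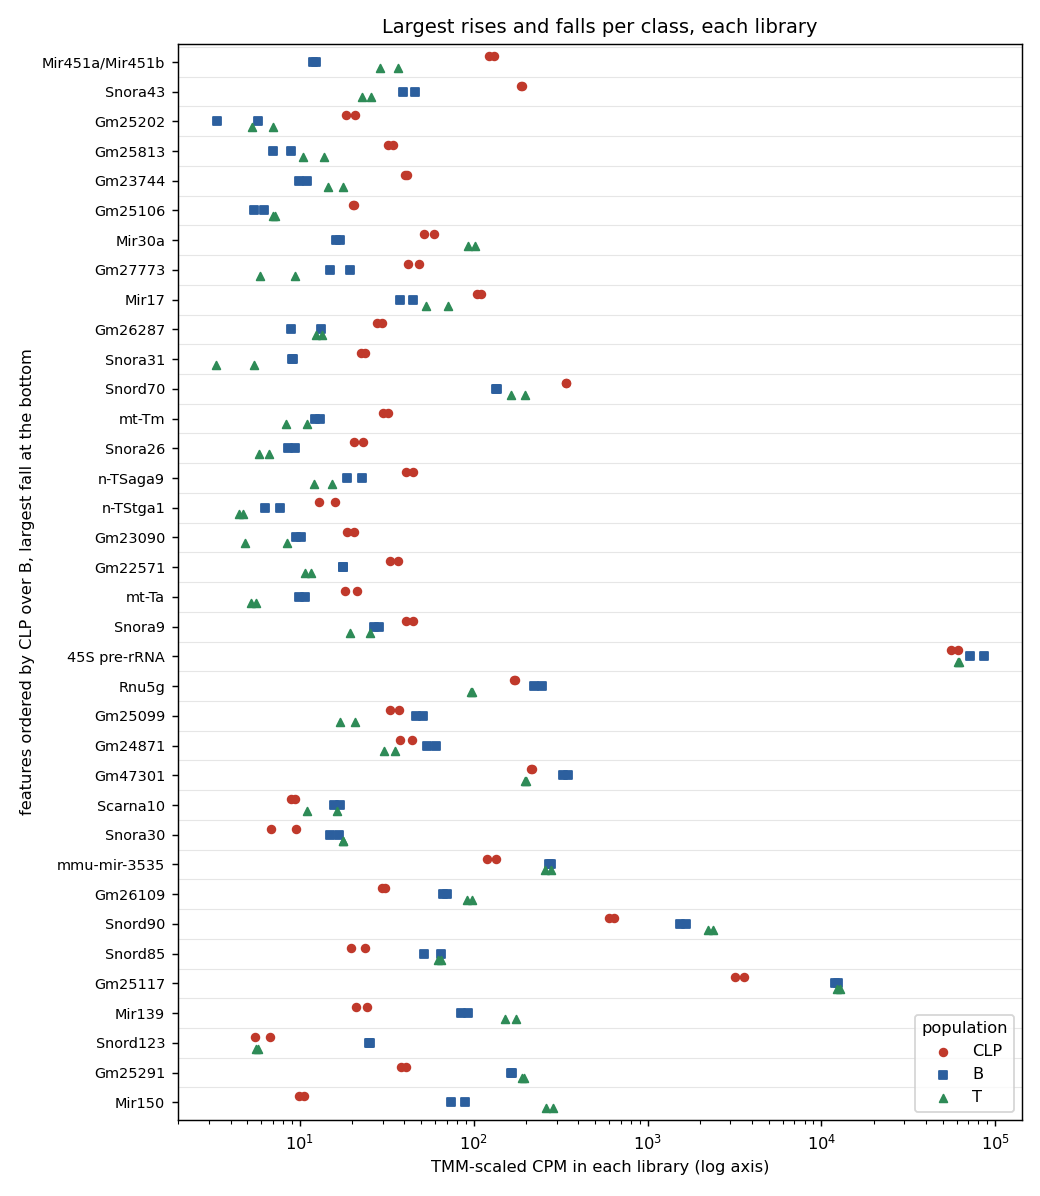
TMM-scaled CPM in each library (horizontal log axis) for the largest rises and falls of each class, ordered by the log2 fold change of CLP over B with the largest fall at the bottom. Red circles are CLP libraries, blue squares B libraries and green triangles T libraries. In each of the features drawn, both CLP libraries lie on one side of both B libraries, as the rule for naming them requires.

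Since several snoRNAs are cut from one host transcript, snoRNAs of one host were compared with each other. Of 51 host genes with at least 2 tested snoRNAs, 11 held both a higher and a lower snoRNA, 7 held only higher ones among those called, 21 only lower ones, and 12 had none called. The hosts with both directions numbered 13 under library totals. In 7 of them both directions were called under all 3 scalings: Eif4a2, Gas5, Gnl3, Nop56, Rpl4, Snhg1 and Wdr43.

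Gas5, a noncoding RNA gene whose introns carry 10 tested snoRNA intervals, had 4 higher and 4 lower in CLP under TMM, 7 and 2 under library totals and 3 and 3 under RLE factors. It had 2 higher and 3 lower without CLP library 1. Gm22357 was at 1906 and 1813 CPM in CLP against 1167 and 1099 CPM in B, a log2 fold change of 0.71. Gm22489, in another intron of the same gene, was at 1847 and 1752 CPM in CLP against 3140 and 3068 CPM in B, a log2 fold change of -0.79. In every library the first was higher in CLP and the second higher in B. Snord78 gave 0.62 and the interval named Mir5117, annotated as a snoRNA, gave 0.36. The 2 overlapping Snord80 intervals gave -0.09 (not called, and 0.32 under library totals) and -0.96, and reads could be split between them by the counting. Calls of 0.36 or less in size were fragile: that of Mir5117 was lost without CLP library 1 (adjusted p = 0.148), and those of Gm25789 (0.21, adjusted p = 0.0704 to 0.431) and Gm23212 (-0.23, adjusted p = 0.104 to 0.291) were lost without any 1 of the 4 libraries. The last 2 calls were also lost under RLE factors (adjusted p = 0.223 and 0.168), and Gm23212 was higher in CLP under library totals (0.19, adjusted p = 0.0125).

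Snhg1, another noncoding host, had 4 higher and 2 lower of 8. Gm24453 was the highest at 0.69, from 691 and 655 CPM in CLP against 432 and 403 CPM in B. Gm23246 was the lowest at -0.69, from 7692 and 7359 CPM in CLP against 12160 and 12170 CPM in B. The other 3 higher snoRNAs of Snhg1 gave 0.18 to 0.22, and their calls were lost under RLE factors. The number of Snhg1 calls was 3 without CLP library 1, CLP library 2 or B library 2, and 4 without B library 1. Rpl4 had 3 higher and 2 lower of 5, from 0.97 for Gm22571 to -0.74 for Snord16a, and 3 in all without CLP library 2, B library 1 or B library 2. Nop56, which encodes the partner of NOP58 in the C/D particle, had 1 higher and 2 lower of 5, among them Snord57 at 4624 and 4743 CPM in CLP and 8911 and 8919 CPM in B (-0.93). Across all ribosomal protein hosts, 6 of 58 tested snoRNAs rose and 21 fell under TMM (median -0.16), but 30 rose and 7 fell under library totals. Without CLP library 2 or B library 2, 15 and 14 of them passed.

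**Figure D3:**
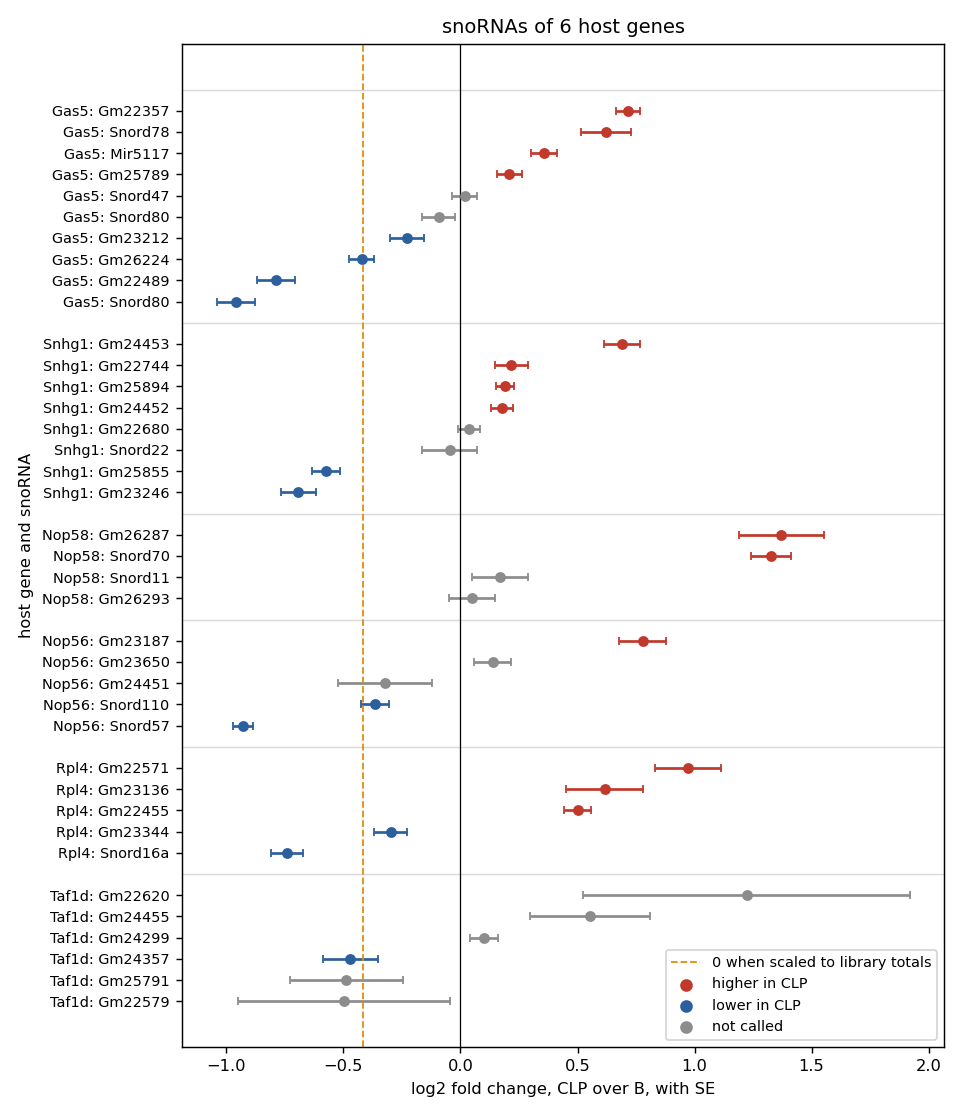
Log2 fold change of CLP over B with its SE (horizontal axis) for each tested snoRNA of 6 host genes. Red points are higher in CLP, blue lower and grey not called, and the dashed orange line shows where 0 falls when libraries are scaled to their totals. The snoRNAs of Gas5 run from -0.96 to 0.71, and those of Snhg1 from -0.69 to 0.69.

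Most of the snoRNAs listed here as rRNA-processing take part in cleavage of the pre-rRNA and not, or not only, in its modification. Of 19 tested intervals, 4 rose and 10 fell, with a median of -0.59. Under library totals 6 rose and 1 fell. Without CLP library 1, CLP library 2, B library 1 or B library 2, 3, 5, 6 and 2 passed. The 1 that fell under all 3 scalings was Snord118 (U8, needed for large subunit rRNA). It was at 86.3 and 87.6 CPM in CLP and at 162 and 167 CPM in B, so both B libraries lay above both CLP libraries (-0.92 ± 0.09, adjusted p = 1.03e-05).

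Snord13 (U13) was higher in CLP, at 187 and 171 CPM against 122 and 126.1 CPM in B (0.53, adjusted p = 0.00663). Its call was lost without CLP library 1 (adjusted p = 0.105) and without B library 2 (adjusted p = 0.063). Of the 4 U14 snoRNAs, which act in small subunit rRNA processing, 3 rose: Snord14e by 0.63, Snord14a by 0.58 and Snord14c by 0.33, while Snord14d stood at 0.14 and was not called. The calls of Snord14a and Snord14c were lost without CLP library 1 (adjusted p = 0.304 and 0.266) and without B library 2 (0.0662 and 0.0955), and that of Snord14a also without B library 1 (0.132). The call of Snord14c was lost under RLE factors as well (0.0519). The U3 intervals, 10 in all, hold near-identical or overlapping copies, so their reads are not independent. The 8 in Tex14 were lower at -0.60 to -0.73, the pair named Rnu3a gave -0.04 and -0.01, and under library totals none of the 10 was called. Each of the 8 U3 calls was lost without CLP library 2 (adjusted p = 0.0604 to 0.182) and without B library 2 (0.057 to 0.186), and 7 of them also without CLP library 1 and without B library 1. Of the U17 snoRNAs, Snora73b gave -0.59 and Snora73a, the more abundant, -0.07. The call of Snora73b was lost under library totals and without CLP library 1, CLP library 2 or B library 2 (adjusted p = 0.0588, 0.267 and 0.357).

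H/ACA snoRNAs had calls in both directions, with 9 higher and 14 lower of 115 tested and a median of 0.01. Both are smaller shares than the 15.8% higher and 14.7% lower over all tested features. Under library totals 30 rose and 7 fell, and under all 3 scalings 7 rose and 7 fell. Without CLP library 1, CLP library 2, B library 1 or B library 2, 14, 12, 16 and 14 passed. Most were scarce: 29 of the 115 had a mean of at least 10 CPM, and of these 5 rose and 7 fell.

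Gm25117 was at 3568 and 3185 CPM in the CLP libraries and at 12396 and 12026 CPM in the B libraries. Both CLP libraries lay below all other libraries of the series, of which the next lowest were MEP at 5490 and 6079 CPM. The log2 fold change was -1.85 ± 0.11 (adjusted p = 2.92e-07), which is 3.62-fold lower, and it was -1.44 under library totals. T libraries held 12758 and 12282 CPM, and B against T was not called for it (-0.04, adjusted p = 0.847). Gm25291, its relative on chromosome 11, was at 38.2 and 40.9 CPM in CLP and 163.6 and 166.4 CPM in B (-2.06 ± 0.17, adjusted p = 5.49e-06).

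Gm25117 carried most of the summed H/ACA level, 65.7% and 65% of it in the CLP libraries and 86.8% in each B library. The summed level of all H/ACA snoRNAs was 5429 and 4899 CPM in CLP and 14274 and 13861 CPM in B. Without Gm25117 it was 1862 and 1714 CPM in CLP and 1878 and 1835 CPM in B. So the summed level of the other H/ACA snoRNAs overlapped between the populations.

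Snora43 (ENSMUSG00000097052) was at 190.9 and 188 CPM in CLP and at 39.4 and 45.8 CPM in B. The CLP libraries lay well above the B and T libraries (25.6 and 22.7 CPM in T) and below the MEP libraries (600 and 580 CPM). The log2 fold change was 2.15 ± 0.14 (adjusted p = 8.48e-07), which is 4.45-fold higher. The interval overlaps another annotated Snora43, so reads may be split between the 2. Snora26 was at 23 and 20.4 CPM in CLP and 9.37 and 8.6 CPM in B (1.27 ± 0.15), and since it overlaps Dancr exons, reads of the host transcript cannot be told apart from it. Snora31, in an intron of Tpt1, gave 1.35 ± 0.36 (adjusted p = 0.0157), but its call was lost without any 1 library (adjusted p = 0.0748 to 0.111). Snora9 gave 0.64, a call also lost without any 1 library (adjusted p = 0.0605 to 0.0841).

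Both tested scaRNAs were lower in CLP under TMM, Scarna10 at -0.83 and Scarna9 at -0.78, and neither was called under library totals. The call of Scarna10 was also lost without any 1 library (adjusted p = 0.0749 to 0.169), and that of Scarna9 without CLP library 1 (0.066), CLP library 2 (0.124) or B library 2 (0.24). Snora30, in an intron of the chromatin remodeller gene Srcap, gave -0.95, and its call was lost under library totals (adjusted p = 0.0863) and without CLP library 2 (adjusted p = 0.0779).

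Spliceosomal snRNAs that passed the test were mostly higher in CLP. Of 117 tested intervals, 36 rose and 3 fell, with a median log2 fold change of 1.13 beside 0.08 over all features. Under all 3 scalings 34 rose and 0 fell. Most intervals are copies of a few genes: by closest named gene, 24 matched U1 (Rnu1a1), 20 matched U2 (Rnu2-10), 7 matched U5 (Rnu5g) and 56 matched U6 (Rnu6). By group the calls were 12 higher and 0 lower for U1, 12 and 0 for U2, 0 and 3 for U5, and 9 and 0 for U6. The U6 count was 2 without CLP library 1 and 5 without CLP library 2. Reads of near-identical copies could be split by the counting, so the copies are no independent genes. Among matches with a mean of at least 10 CPM, 2 of 10 rose for U1 and 11 of 15 for U2. For U5, 3 of 5 fell. None of the 56 U6 matches reached 10 CPM. Such scarce intervals can pass the filter on low counts through the group where they are higher, so no direction is read from U6.

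The rises were mainly in scarce copies. Of the 85 snRNA intervals with a mean under 10 CPM, 23 rose and 0 fell (median 1.46). An interval can pass the filter on low counts through the group where it is higher, so no direction is read from that count or median. Of the 32 with at least 10 CPM, 13 rose and 3 fell, with a median of 0.053. Among U1 copies of the length of Rnu1a1, or up to 2 bases longer, and with a mean of at least 50 CPM, 0 of 8 were called, with values from -0.46 to 0.02. Among the 14 below 50 CPM, 12 rose, with values from -0.30 to 2.28. The split held between identical sequences: Rnu1a1 was at 62.6 and 70.9 CPM in CLP and 69.5 and 74.8 CPM in B (-0.11), while Gm22317, with the same letters over its whole length, was at 12.1 and 13.8 CPM in CLP and 4.62 and 4.69 CPM in B (1.48 ± 0.21). The first pair overlapped between populations and the second did not.

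Among U2 copies of like length with at least 50 CPM, 4 of 8 rose, with values from -0.0037 to 0.71. Of the 6 below 50 CPM, 5 rose, with values from 0.94 to 2.11. Rnu2-10 itself was at 249 and 231 CPM in CLP and 224 and 203 CPM in B (0.17, not called). Gm26316, a U2 copy on the same chromosome, was at 55.8 and 53.1 CPM in CLP and 21.5 and 18.5 CPM in B (1.45). Gm25813 gave 2.07 ± 0.27, and Gm25202 gave 2.11 ± 0.50 (adjusted p = 0.0073), a call lost without B library 1 (adjusted p = 0.0731). Summed over U1 intervals, however, the level was 652 and 717 CPM in CLP and 621 and 703 CPM in B, which overlap. Summed over U2 intervals it was 1916 and 1817 CPM in CLP and 1517 and 1444 CPM in B.

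The U2-like Gm23744 and Gm25106 have no copy of at least 95% identity over 90% of their length. Parts of them do match U2: Gm23744 is identical to Rnu2-10 over its first 77 of 149 bases. Gm25106 had 93.6% identity with it over 110 aligned positions. Reads of U2 could thus be counted in them, which was not tested. Gm23744 was at 41.3 and 40.1 CPM in CLP and 11 and 9.85 CPM in B, a log2 fold change of 1.96 ± 0.17 (adjusted p = 7.38e-06). Gm25106 was at 20.5 and 20.3 CPM in CLP and 5.45 and 6.26 CPM in B (1.80 ± 0.15, adjusted p = 6.33e-06). The mean of CLP was 3.89-fold that of B for Gm23744 and 3.49-fold for Gm25106. Gm23744 differs from Rnu2-10 beyond the capitals printed above. Gm25106 differs from it beyond the capitals, before them and at some bases within them.

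The 3 snRNAs that fell were all U5 copies. Rnu5g was at 174 and 171 CPM in CLP and at 247 and 223 CPM in B, so B lay above CLP (-0.45 ± 0.09, adjusted p = 0.00214). Gm25099 gave -0.47 and Gm24871 -0.48. Under library totals the 3 values were -0.03 to -0.07 and none was called, so these falls depend on the scaling. All 3 calls were also lost without CLP library 2 (adjusted p = 0.0636 to 0.244) and without B library 1 (0.0538 to 0.129), and those of the last 2 without B library 2 (0.065 and 0.0974). In the T libraries Rnu5g was at 96.7 and 97.7 CPM, and B against T gave 1.27 (adjusted p = 2.88e-06). Of the snRNAs outside these groups, Rnu11 of the minor spliceosome gave 0.87 (adjusted p = 0.0194), a call lost without CLP library 1, CLP library 2 or B library 2 (adjusted p = 0.0867, 0.123 and 0.148). Rnu12 gave -0.20 and the histone-processing Rnu7 -0.02, and neither was called.

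**Figure D4:**
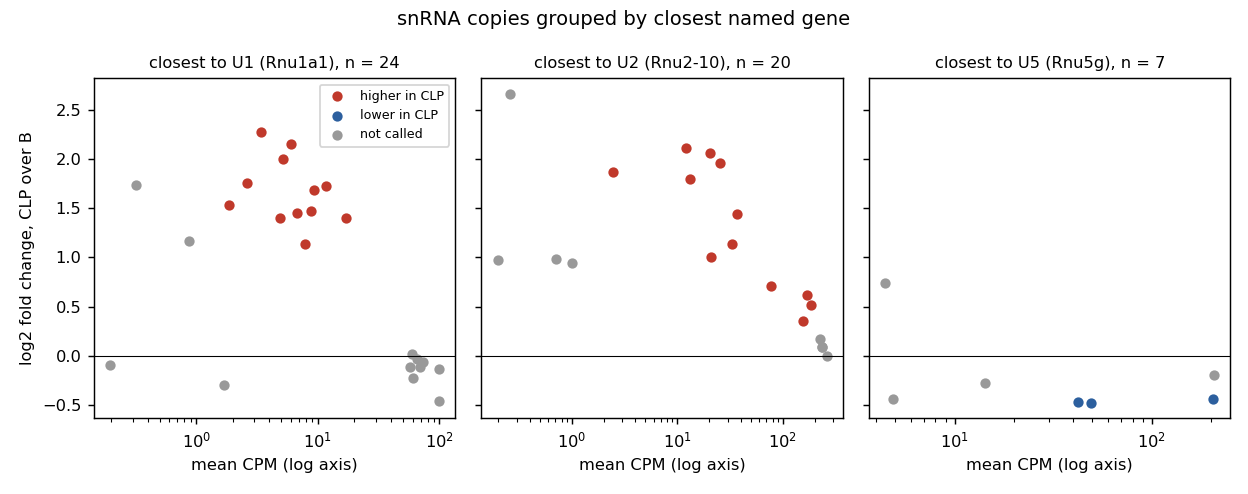
Log2 fold change of CLP over B (vertical axis) against mean CPM over the 4 libraries (horizontal log axis) for tested snRNA intervals grouped by the named gene they match best. Red points are higher in CLP, blue lower and grey not called. U1 and U2 copies rise above 0 at the left of their panels and come near 0 at the right, whereas the 3 called U5 copies lie below 0.

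miRNA hairpins had calls in both directions, and the number called moved with the populations in the fit. Of 261 tested, 17 rose and 18 fell in CLP, with a median of -0.09. These too are smaller shares than the 15.8% and 14.7% over all tested features. The fit shares its spread over all populations, and the 2 libraries of GMP, of MEP and of Erythroid stood apart from each other. Mir223, for example, was at 268 and 423 CPM in the GMP libraries and 308 and 155 CPM in the MEP libraries. In the Erythroid libraries it was at 297 and 590 CPM. With GMP, MEP and Erythroid left out of the fit, 51 rose and 56 fell of 247 tested. Leaving out populations whose libraries stand apart lowers the shared spread by design, so calls added by that fit, here and below, are no separate evidence. Under library totals the split was 37 higher and 14 lower, with a median of 0.32. Without CLP library 1, CLP library 2, B library 1 or B library 2, 17, 19, 16 and 18 miRNA intervals passed.

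Mir150, a miRNA known for its high level in mature lymphocytes, had one of the largest falls. It was at 10.5 and 9.9 CPM in CLP and at 74.5 and 89.1 CPM in B, and the T libraries stood higher still at 259 and 285 CPM. The log2 fold change was -3.0 ± 0.49 (adjusted p = 0.00065), which is 8.02-fold lower, and it was called under each alternative that held miRNAs. B against T gave -1.73 (adjusted p = 0.0172). Mir342, the other mature lymphocyte marker, was at 5.38 and 8.55 CPM in CLP and 13.4 and 18.9 CPM in B (-1.20, adjusted p = 0.155). It was called with GMP, MEP and Erythroid left out (-1.18, adjusted p = 0.000152).

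Mir139, in an intron of Pde2a, was at 20.9 and 24.4 CPM in CLP and at 84.7 and 92.4 CPM in B, with no overlap (-1.96 ± 0.54, adjusted p = 0.017). Its call was lost without CLP library 1 (adjusted p = 0.0874) and without CLP library 2 (adjusted p = 0.0627). The interval mmu-mir-3535 was at 119 and 134 CPM in CLP and 271 and 277 CPM in B (-1.12 ± 0.10). It overlaps the C/D snoRNA Gm24148 in an intron of the nucleolin gene Ncl, which was at 104 and 102 CPM in CLP and 229 and 221 CPM in B (-1.13). Reads of the pair cannot be told apart from the counts. Mir155, a miRNA of lymphocyte activation, gave -1.06 (adjusted p = 0.0338), a call lost under library totals (-0.64, adjusted p = 0.177) and without CLP library 1 (adjusted p = 0.146), B library 1 (0.0753) or B library 2 (0.107).

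The interval shared by Mir451a and Mir451b (chr11:78073170-78073241, GRCm38) holds 2 genes on opposite strands. It had the largest called rise among features whose mean reached 10 CPM and whose CLP and B libraries did not overlap. It was at 122 and 131 CPM in CLP and at 11.9 and 12.4 CPM in B. T libraries held 28.9 and 36.6 CPM, and the MEP libraries held 180 and 124 CPM, so CLP lay near MEP and far from B. The log2 fold change was 3.39 ± 0.30 (adjusted p = 8.13e-06), which is 10.5-fold higher. Mir451a is known as an erythroid miRNA. Its neighbour Mir144, made from the same precursor, was at 2.12 and 2.91 CPM in CLP and 0.119 and 0.313 CPM in B (3.58 ± 0.94, adjusted p = 0.0135), and that call was lost without B library 1 (2.99, adjusted p = 0.109).

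The summed level of these 2 erythroid markers was 124 and 134 CPM in CLP, 12 and 12.7 CPM in B and 114 and 184 CPM in Erythroid. The part of other cells in this rise was not tested. The summed level of the 3 myeloid markers was 294 and 320 CPM in CLP, 224 and 241 CPM in B, and 1245 and 1336 CPM in Myeloid. Most of the CLP sum was Mir223, which was called higher (0.99). The other myeloid markers went the other way, Mir139 at -1.96 (called lower) and Mir147 at -0.94 (not called), and the list median was -0.94. The 3 T-cell-enriched markers summed to 0.265 and 0.347 CPM in CLP and to 0.83 and 1.41 CPM in B, against 11.8 and 11.4 CPM in T. That list was chosen on an earlier analysis of these libraries. Of its members Mir592, with 14 counts in each B library, was called lower in CLP (-3.09). That call was lost under library totals (-2.68), and without 1 library the value ran from -7.19 to -2.50. Mir183 (0.30) and Mir211 (2.61) were not called. Of the 6 markers of lymphocyte development and activation 1 fell (Mir155), and of the 6 tested stem and progenitor markers none was called. With GMP, MEP and Erythroid left out, all 6 of the first list fell, from -0.71 for Mir181b-2 to -1.08 for Mir181a-1. Under that fit 2 stem and progenitor markers rose, Mir10a at 0.43 (adjusted p = 0.000139) and Mir99a at 1.09 (adjusted p = 0.00157). Of 14 markers of stroma, muscle and other tissue, 13 were listed in the series, and Mir124a-1 was not. Among those listed, Mir214, Mir122 and Mir141 were at 0 in CLP and B. The sum of these tissue markers was 4.06 and 5.51 CPM in CLP and 5.69 and 9.23 CPM in B.

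Mir30a was at 52 and 59 CPM in CLP and at 17.1 and 16.2 CPM in B (1.74 ± 0.51, adjusted p = 0.0242), while the T libraries stood at 93.4 and 101 CPM. The lymphoid populations thus ordered as T, CLP and B, and B against T gave -2.55 (adjusted p = 0.00388). The call in CLP against B was lost without any 1 library (adjusted p = 0.0716 to 0.099). The other 5 tested members of the Mir30 family were not called, and the family median was -0.41. With GMP, MEP and Erythroid left out, all 6 were called: Mir30a and Mir30b (0.41) rose, and Mir30c-1 (-0.75), Mir30d (-0.73), Mir30c-2 (-0.50) and the shared Mir30f/Mir30e interval (-0.34) fell.

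Mir223, a myeloid miRNA, was at 272 and 295 CPM in CLP and 138 and 147 CPM in B (0.99 ± 0.34, adjusted p = 0.047). Mir7-2 was at 188 and 194 CPM in CLP and 88.8 and 95.1 CPM in B (1.05 ± 0.35, adjusted p = 0.0408). In both, the CLP libraries lay above the B libraries, but both calls were lost without any 1 library (adjusted p = 0.105 to 0.176 for Mir223 and 0.0953 to 0.158 for Mir7-2). Gm27773, an interval annotated as a miRNA, was at 48.8 and 41.6 CPM in CLP and 19.3 and 14.9 CPM in B, a log2 fold change of 1.40 ± 0.21.

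The Mir17-92 and Mir106a-363 clusters carry related miRNAs, among them the 4 printed above with the seed AAAGUGC. In Mir17-92, Mir17 was at 104 and 110 CPM in CLP and 37.6 and 44.9 CPM in B (1.38 ± 0.47, adjusted p = 0.0462). Mir20a was at 163 and 190 CPM in CLP and 80.4 and 95.2 CPM in B (1.01, adjusted p = 0.12). In Mir106a-363, Mir106a was at 1.77 and 2.39 CPM in CLP and 4.15 and 4.85 CPM in B (-1.10, adjusted p = 0.187). Mir20b was at 5.3 and 5.17 CPM in CLP and 10.9 and 12.5 CPM in B (-1.16, adjusted p = 0.173). Of these 4 miRNAs, CLP libraries were thus above B in those of Mir17-92 and below B in the scarcer ones of Mir106a-363. In the related cluster Mir106b-25, not printed above, 0 of 3 tested members were called. Its sum was 193 and 215 CPM in CLP and 170 and 181 CPM in B.

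By cluster, 1 of 6 tested Mir17-92 members was higher (median 1.01) and 0 were lower. In Mir106a-363, Mir19b-2 alone was called, higher at 1.15 (adjusted p = 0.0302), and the median of its 6 members was -1.18. With GMP, MEP and Erythroid left out, 4 of 6 Mir17-92 members rose and 0 fell, and in Mir106a-363 1 rose and 5 fell. The difference between the clusters was not tested, and the call of Mir17 was lost by limma-voom (adjusted p = 0.0592) and without any 1 library (adjusted p = 0.0974 to 0.192). The call of Mir19b-2 was also lost without any 1 library (adjusted p = 0.0943 to 0.118). Under RLE factors 2 other members of its cluster passed, both lower. Members of the let-7 (0 of 10), Mir15/16 (0 of 5), Mir23/24/27 (0 of 6), Mir29 (0 of 4), Mir181 (0 of 6), Mir142 (0 of 2) and Mir146 (0 of 2) families were not called. With GMP, MEP and Erythroid left out, 4 let-7 members rose, the largest being Mirlet7b at 0.98, and Mir23a and Mir23b rose by 0.46 and 0.43. Mir29a and Mir29c fell (-0.61 and -1.75), as did 4 Mir181 members and both Mir142 intervals (-0.92 and -0.93, which lie at 1 locus). Mir146 fell (-0.94) and Mir146b rose (1.08), while the 5 Mir15/16 members were again not called. Mir181a-1, known in lymphocyte development, gave -1.07 (adjusted p = 0.131), and with GMP, MEP and Erythroid left out -1.08 (adjusted p = 1.63e-06). Mir21a gave -0.01 (adjusted p = 0.987).

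A group of intervals annotated as miRNAs lies opposite histone genes, and they were chosen after their values were seen. Of 19 listed, 14 were tested, all 14 on the strand opposite an H2A gene. Most were under 2 CPM in both populations and could pass the filter through B, where their mean was higher, so no count or median over them is given. Gm47313 (chr3:96245826-96245963, minus strand, opposite Hist2h2aa1) is shown because its letters are those of 3 tested intervals, itself included. It is printed without capitals.
Gm47313: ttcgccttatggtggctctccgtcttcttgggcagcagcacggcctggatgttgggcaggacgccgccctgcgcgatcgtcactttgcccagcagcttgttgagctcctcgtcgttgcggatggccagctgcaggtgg
Gm47313 was at 1.68 and 2.48 CPM in CLP and 13.8 and 17.1 CPM in B (-2.87 ± 0.30, adjusted p = 2.78e-05), and Gm44341, opposite Hist1h2al, was at 1.94 and 1.48 CPM in CLP and 12.2 and 13.5 CPM in B (-2.92 ± 0.32). Histone messenger RNAs are made when cells copy their DNA. Whether the populations differed in copying DNA was not tested. Summed over the 19 listed, the level was 50.9 and 63.5 CPM in B and 10.3 and 10.7 CPM in CLP. It was 38.5 and 34.8 CPM in Erythroid and 9.1 and 9.48 CPM in T. The sum only describes a group chosen on its values, and it holds each of the 3 intervals with the same letters. Whether strand was used in counting is not given in the sources used here, so reads from a histone gene and from the interval opposite it cannot be told apart.

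Mitochondrial transfer RNAs (tRNAs) that were called were all higher in CLP: 9 of 21 rose and 0 fell. All 9 were called under the 3 scalings. The median was 0.91, and 17 of the 21 had values above 0. Of the 17 with a mean under 10 CPM, which can pass the filter through the group where they are higher, 6 rose. Of the 4 with at least 10 CPM, 3 rose. mt-Tq was at 13.8 and 13.1 CPM in CLP and 3.85 and 4.38 CPM in B (1.71 ± 0.15, adjusted p = 8.13e-06). mt-Tm was at 30.1 and 32.2 CPM in CLP and 13 and 12.2 CPM in B (1.30 ± 0.16), and mt-Ts2 was at 56.0 and 56.2 CPM in CLP and 29.7 and 29.9 CPM in B (0.91). In each, both CLP libraries lay above both B libraries. The mitochondrial rRNA mt-Rnr2 was at 294 and 264 CPM in CLP and 211 and 183 CPM in B (0.50 ± 0.11, adjusted p = 0.00502), a call lost without CLP library 1 (adjusted p = 0.249) and without B library 2 (0.153). mt-Tq, mt-Ts2 and mt-Rnr2 were chosen after their values were seen.

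Nuclear tRNA intervals were few: 3 of 4 rose, among them n-TSaga9 at 1.05 and n-TStga1 at 1.04. Of the housekeeping RNAs, 1 of 7 was called, the Y RNA Rny3 at 7.33 and 8.47 CPM in CLP and 2.96 and 4.22 CPM in B (1.14 ± 0.27, adjusted p = 0.00697). Its call was lost without CLP library 2 (adjusted p = 0.0581) and without B library 1 (adjusted p = 0.0703). Rn7sk, which holds the elongation factor P-TEFb inactive, gave 0.24 (adjusted p = 0.0843) and Rny1 0.14. The 45S pre-rRNA interval was at 55930 and 60985 CPM in CLP and 71330 and 86243 CPM in B (-0.43 ± 0.10, adjusted p = 0.00812), but gave -0.01 under library totals. Without B library 2 it gave -0.29 (adjusted p = 0.119). The 5S interval Gm47301 gave -0.65, and -0.23 under library totals, where it was not called.

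The snoRNAs of the imprinted Dlk1-Gtl2 locus, named in the title of the series, were near the detection limit in both populations. The 8 listed intervals summed to 0.883 and 0.521 CPM in CLP and to 0.593 and 0.156 CPM in B, which overlap, and none passed the filter for a test. At these depths a difference between CLP and B in that locus was not detectable. The 13 listed snoRNAs of the imprinted Snrpn-Ube3a locus summed to 1.68 and 1.13 CPM in CLP and to 0.593 and 1.09 CPM in B, and to 8.52 and 9.05 CPM in T. The 1 that was tested gave 1.22 and was not called, but it was called higher in CLP under library totals (1.63) and with GMP, MEP and Erythroid left out (1.19).

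B against T shares the B libraries with CLP against B, so its values are given beside the others and not as a separate line of evidence. In that comparison 211 of 749 features passed (28.2%), 140 of them higher in B (18.7%) and 71 lower (9.48%). The fall of Snord49a in CLP was met by equal levels in the mature lymphocytes, at 162340 and 169420 CPM in T (B against T -0.01, adjusted p = 0.943). Snord90 at 2235 and 2372 CPM in T stood above B (-0.52, adjusted p = 0.000119). Snord70 was at 163.6 and 197 CPM in T, somewhat above B (-0.41, adjusted p = 0.00362) and below CLP. Snora43 (ENSMUSG00000097052) was higher in B than in T (0.82, adjusted p = 0.00114).

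To see where CLP against B departs from other pairs of progenitor and mature cells, its log2 fold changes were tested against those of GMP against Myeloid and of MEP against Erythroid, which share no library with it. The difference passed for 115 features (15.4%) beside GMP and Myeloid and for 127 (17%) beside MEP and Erythroid. The first were 41 higher (5.47%) and 74 lower (9.88%), and the second 51 higher (6.81%) and 76 lower (10.1%). Under library totals the balance turned, with 19 lower of 214 and the rest higher in the first and 124 higher and 34 lower of 158 in the second. Under RLE factors the second count was 64. Without CLP library 1, CLP library 2, B library 1 or B library 2, the first count was 60, 37, 67 and 47, and the second 57, 48, 76 and 49. 

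Gm25117 gave -1.85 for CLP over B but 0.20 for GMP over Myeloid, a difference of -2.05 ± 0.15 (adjusted p = 1.85e-05). Gm25291 behaved alike, with -2.06 against 0.14 and a difference of -2.19 ± 0.23 (adjusted p = 0.000216). Mir223 gave 0.99 for CLP over B and -1.41 for GMP over Myeloid, a difference of 2.40 ± 0.48 (adjusted p = 0.00672). Snord123 gave -2.03 for CLP over B and 0.88 for MEP over Erythroid, a difference of -2.91 ± 0.24 (adjusted p = 1.89e-05). The U2-like Gm23744 and Gm25106, higher in CLP than in B, gave -0.70 and -0.72 for MEP over Erythroid (differences 2.66 ± 0.24 and 2.52 ± 0.21, adjusted p = 2.36e-05 and 1.89e-05). The values of these features had opposite signs in the 2 branches, although those of the H/ACA pair in GMP over Myeloid, with SEs of 0.10 and 0.16, lay near 0. Beside GMP over Myeloid, where it gave -2.23, the value of Snord123 differed by 0.20 ± 0.25 (adjusted p = 0.622).

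**Figure D5:**
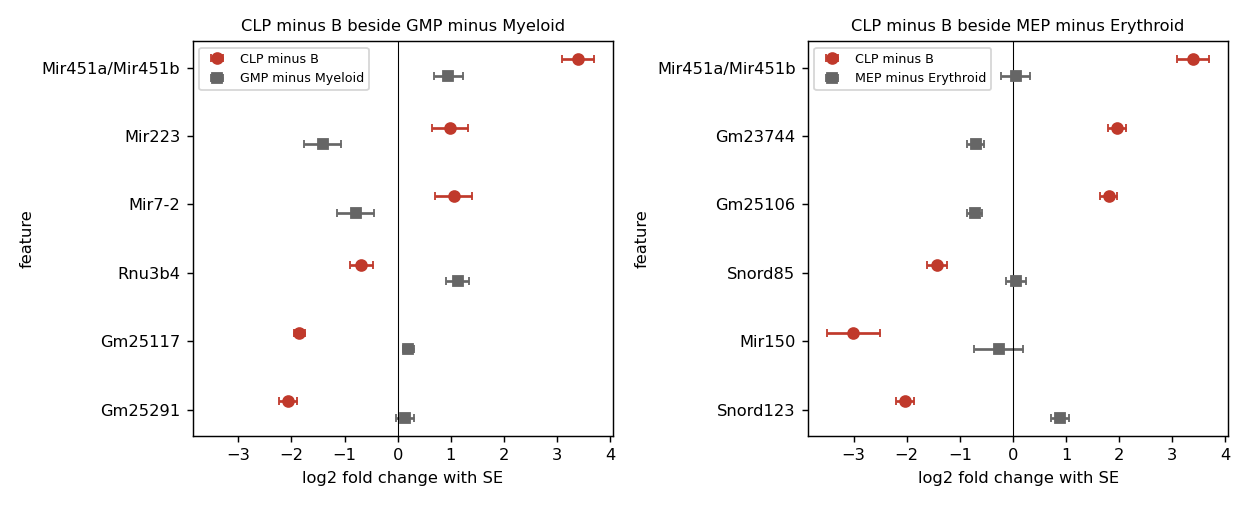
Log2 fold change with SE (horizontal axis) of CLP over B (red circles) beside GMP over Myeloid (left panel) and MEP over Erythroid (right panel, grey squares in both) for the features whose difference between branches was largest in each direction. Gm25117 and Gm25291 lie at 0.20 and 0.14 in GMP over Myeloid and at -1.85 and -2.06 in CLP over B, and Snord123 lies on opposite sides of 0 in the right panel.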

How the data were processed

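The authors deposited 1 raw read count for each small RNA interval and library, not normalized, in 16 libraries. Per the submitters' processing notes, Trimmomatic 0.38, Bowtie2 2.3.4.1 and GRCm38 were used. The counting program, its strand setting and the annotation are not given in the sources used here. Intervals missing from a library were taken as 0. Of 1885 intervals, 1884 were named by exact coordinates in GENCODE M21, and the last was taken as the 45S pre-rRNA. Copies were searched with blastn 2.17.0, at 95% identity or more over 90% of the length. Of the counts, 89.6% to 91.4% per library were even numbers, and halved counts were tried.

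The test was edgeR 4.0.16 in R 4.3.3 (filterByExpr with a minimum count of 10, TMM, glmQLFit with 1 mean for each of 8 populations and 8 residual degrees of freedom, glmQLFTest). Adjusted p-values are Benjamini-Hochberg over 749 features with a threshold of 0.05, and an SE is the log2 fold change over the square root of F. The script was tested on simulated counts. Alternatives used DESeq2 1.42.0 and limma 3.58.1, among 17 in all.

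Named features are the 4 largest called rises and falls per class whose mean reached 10 CPM, with no overlap between the CLP and B libraries, the 6 with the highest mean, the processing, housekeeping and minor snRNA lists, snoRNAs of the 4 hosts with the most tested, cell type markers, and the 3 largest differences from each other branch in each direction. Other features named in the text were chosen after their values were seen. Some host gene and sequence details are not reported here. Members and lists were chosen with earlier results of these data known. Differences between libraries 1 and 2 were almost uncorrelated between CLP and B (Pearson 0.04, Spearman 0.10 across features). With 2 libraries each this cannot exclude a pairing, and replicate labels give no shared mouse or day.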

Additional observations from a re-analysis of the deposited data

Results flagged for a closer look

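The following differences between CLP and B departed, in a test of the difference itself, from the same difference in another branch. Each value is the log2 fold change of CLP over B minus that of the other pair, with its SE and edgeR's adjusted p. Beside GMP over Myeloid, Gm25291 differed by -2.19 ± 0.23 (0.000216) and Gm25117 by -2.05 ± 0.15 (1.85e-05). The U3 copy Rnu3b4 (ENSMUSG00000098641) differed by -1.82 ± 0.31 (0.00272), with 1.13 in GMP over Myeloid. The Mir451a/Mir451b interval differed by 2.44 ± 0.40 (0.00253), Mir223 by 2.40 ± 0.48 (0.00672) and Mir7-2 by 1.84 ± 0.49 (0.0278). The call of Mir7-2 was lost without any 1 CLP or B library (adjusted p = 0.06 to 0.0925).

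Beside MEP over Erythroid, Snord123 differed by -2.91 ± 0.24 (1.89e-05), Snord85 by -1.49 ± 0.27 (0.00311) and Mir150 by -2.73 ± 0.66 (0.0154). The call of Mir150 was lost without CLP library 1 (adjusted p = 0.0527) or CLP library 2 (0.0649). The Mir451a/Mir451b interval differed by 3.33 ± 0.40 (0.000252), with 0.05 in MEP over Erythroid, Gm23744 by 2.66 ± 0.24 (2.36e-05) and Gm25106 by 2.52 ± 0.21 (1.89e-05).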

How the results depend on the processing

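Of 99 named features, 76 were called, and 34 kept direction and call under all 17 alternatives. Counts of calls moved by more than 1.5 times as follows, where a range without 1 library spans all 4 such counts, some of them within 1.5 times. CLP against B: 349 with GMP, MEP and Erythroid left out, 148 with snoRNAs and scaRNAs alone, 121 with similar or overlapping intervals left out, and 142 to 167 without 1 library. Higher in CLP: 242 under library totals, 66 with snoRNAs and scaRNAs alone, 57 with similar intervals left out, 65 to 82 without 1 library. Lower in CLP: 54 under library totals, 172 with CLP and B alone, 180 with GMP, MEP and Erythroid left out, 64 with similar intervals left out, 66 to 85 without 1 library. B against T: 334, 117 and 110 under the first 3 settings, 120 to 200 without 1 library (120 and 138 without B library 1 and B library 2). Beside GMP and Myeloid: 214 under library totals, 52 with similar intervals left out, 37 to 67 without 1 library. Beside MEP and Erythroid: 64 with RLE factors, 64 with no low-count filter, 37 with similar intervals left out, 48 to 76 without 1 library. The cause was not tested, beyond the smaller number of features or libraries. With the replicate number as a block, 225 features passed in CLP against B (111 higher, 114 lower). The sources used here state no shared origin that would pair the libraries. The block lost the calls of Mir223 (adjusted p = 0.0552), Gm23212 (0.0502) and 1 U3 copy (0.0538).

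Directions reversed under library totals for Gm23301 (0.18), Rnu3a (0.37 and 0.40), Snord22 (0.37), Snora73a (0.34), Rn7s1 (0.064), Rnu12 (0.22), Gm23212 (0.19) and Snord80 (ENSMUSG00000065735, 0.32). The housekeeping RNA Terc (-0.16 under TMM, 0.24 under library totals) and the tissue marker Mir200a (-0.34 and 0.062) also changed sign, and neither was called. With no low-count filter, Rnu3a gave 0.012 and 0.041 and Snord22 0.017. With snoRNAs and scaRNAs alone, Rnu3a gave 0.063 and 0.095, Snord22 0.064, Snora73a 0.035 and Snord80 0.018. Snord47 gave -0.0033 with RLE factors and with DESeq2, -0.0017 with GMP, MEP and Erythroid left out, -0.025 with a filter of 10 CPM, -0.012 with CLP and B alone and -0.085 without miRNAs. Gm22680 gave -0.0075 with the 10 CPM filter and -0.067 without miRNAs, where Gm24299 gave -0.0046. Without 1 library, Rnu3a ran from -0.28 to 0.10 and from -0.16 to 0.12, Snord22 from -0.19 to 0.026, Snora73a from -0.34 to 0.10, Snord47 from -0.091 to 0.053, Gm22680 from -0.086 to 0.082 and Gm24299 from -0.019 to 0.14.

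Each population has 2 libraries of unstated origin, and the fit borrows its spread from all 8 populations. The depths set the limit for a count of 0 at 0.0651 to 0.235 CPM in CLP and B, so scarce features are not resolved. The reads carry no molecular identifiers. Left out 1 at a time, a lone library of a population is assumed to vary like the other populations.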
